A study of Homo sapiens with 12 samples.

Results

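The 10 genes described here are IVL, SPRR1A, SPRR1B, SPRR2A, SPRR2D, SPRR3, TGM1, TGM3, CNFN and EVPL, taken by symbol from a table of 38516 human genes. They encode proteins of the cornified envelope and the enzymes that join them. The table gives RPKM, the reads of a gene scaled to the length of its exons and to the reads of the library, for 12 RNA sequencing libraries. KYSE150 and KYSE510 are established cell lines of esophageal squamous cell carcinoma. Each line had 3 control libraries and 3 libraries of cells silenced for HCP5, a gene that makes a long non-coding RNA. All cells, controls included, grew in RPMI-1640 medium with 10% fetal bovine serum. The library titles begin with sh in control and silenced cells alike, and the silencing and control reagents are not named in the labels. Nothing in the labels says that the 3 libraries of a group came from separate cultures, so the p-values below measure only the spread between these libraries.

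The cornified envelope is a sheet of cross-linked protein that forms under the membrane of a squamous cell as it matures. Envoplakin and involucrin lay the first scaffold, small proline-rich proteins are added as cross-bridges, and transglutaminases join them through bonds between glutamine and lysine. The esophageal lining normally keeps a moist, incompletely cornified surface rich in these proteins, and many of their genes lie in a cluster on chromosome 1 called the epidermal differentiation complex.

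Depth ran from 20035025 to 28202422 reads per library, and every silenced library of KYSE150 was deeper than every control of that line. The share of mitochondrial reads was 7.49% to 8.91% in KYSE150 libraries and 10.2% to 11.5% in those of KYSE510. The squamous markers KRT5, KRT6A, KRT14, KRT17 and TP63 were all at 1 RPKM or more in the mean of each group, with a summed level of 519 to 2203 over libraries. None of 6 fibroblast markers reached a mean of 1 RPKM, and their sum was at most 0.901. Of 3 endothelial markers only CDH5 did, in both KYSE510 groups, with a summed level of at most 2.09 per library. Of 3 leukocyte markers only CD68 did, in all groups, with sums of 29.7 to 47.1, while PTPRC was at 0 in KYSE150 controls. The part of other cell types in the results was not tested. In bulk RNA, fewer cells that express a gene and less RNA per cell cannot be told apart.

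HCP5, the targeted gene, stood at 0.745 to 0.786 RPKM in KYSE150 controls and 0.315 to 0.579 in silenced libraries, without overlap. In KYSE510 it stood at 0.914 to 1.85 and 0.505 to 0.951, with overlap. In each line, 3 of 3 pairs with the same replicate number had less HCP5 in the silenced library. The log2 change, on the log2(RPKM + 0.5) scale used throughout, was -0.45 in KYSE150 (limma adjusted p = 0.267, 0.0556 with a replicate block) and -0.53 in KYSE510 (limma adjusted p = 0.646, 0.134 with the block). HCP5 itself therefore did not pass the threshold of 0.05 in either line. At levels this close to the added 0.5 RPKM, the scale understates the size of both changes.

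Of the 10 genes, 6 lie together on chromosome 1 between 152908545 and 153057537 (GRCh38), a span of 148993 bases. In this span IVL, SPRR1A, SPRR3 and SPRR1B are on the plus strand and SPRR2D and SPRR2A on the minus strand. TGM1 lies on chromosome 14 (24249114 to 24264432, minus strand), EVPL on chromosome 17 (76004502 to 76027452, minus strand), CNFN on chromosome 19 (42387019 to 42390287, minus strand) and TGM3 on chromosome 20 (2296001 to 2341078, plus strand). The sequences upstream of the start sites of 5 of the 6 chromosome 1 genes follow, because the genes are neighbours whose levels in KYSE510 range from almost no reads (SPRR3) to the highest of the 10 (SPRR2A). They are the 250 bases before the RefSeq start (GRCh38.p14), read 5′ to 3′ on the strand of the gene. Capitals mark matches to TGANTCA, the recognition sequence of AP-1, the Jun and Fos family of transcription factors. The positions are chr1:152908296-152908545 (plus) for IVL, chr1:152983831-152984080 (plus) for SPRR1A, chr1:153030953-153031202 (plus) for SPRR1B, chr1:153057513-153057762 (minus) for SPRR2A and chr1:153001499-153001748 (plus) for SPRR3.
IVL: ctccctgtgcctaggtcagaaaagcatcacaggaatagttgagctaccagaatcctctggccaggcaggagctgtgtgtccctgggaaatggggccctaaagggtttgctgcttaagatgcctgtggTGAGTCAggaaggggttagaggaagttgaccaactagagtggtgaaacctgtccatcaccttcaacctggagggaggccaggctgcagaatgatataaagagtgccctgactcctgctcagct
SPRR1A: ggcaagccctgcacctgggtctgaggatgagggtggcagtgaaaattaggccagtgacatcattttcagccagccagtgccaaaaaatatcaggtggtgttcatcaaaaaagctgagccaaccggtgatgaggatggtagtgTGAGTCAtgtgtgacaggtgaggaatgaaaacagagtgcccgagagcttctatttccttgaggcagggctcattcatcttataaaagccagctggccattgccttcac
SPRR1B: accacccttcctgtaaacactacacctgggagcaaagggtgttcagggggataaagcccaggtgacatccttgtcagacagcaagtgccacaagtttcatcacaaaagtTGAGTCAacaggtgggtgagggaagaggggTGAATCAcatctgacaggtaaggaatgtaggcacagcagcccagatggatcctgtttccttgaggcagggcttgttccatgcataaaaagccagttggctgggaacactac
SPRR2A: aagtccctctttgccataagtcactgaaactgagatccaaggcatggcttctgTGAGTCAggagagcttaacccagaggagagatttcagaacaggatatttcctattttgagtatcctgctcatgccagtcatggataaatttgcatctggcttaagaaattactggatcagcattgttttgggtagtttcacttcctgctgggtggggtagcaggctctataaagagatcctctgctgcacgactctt
SPRR3: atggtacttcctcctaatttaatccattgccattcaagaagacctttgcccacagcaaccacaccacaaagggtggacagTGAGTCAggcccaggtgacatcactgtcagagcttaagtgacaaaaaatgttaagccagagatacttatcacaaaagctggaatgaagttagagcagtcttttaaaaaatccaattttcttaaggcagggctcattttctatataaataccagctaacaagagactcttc

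All 5 sequences held TGANTCA, which was searched on both strands and reads as a match on both at once. The match began 123 bases before the start in IVL, 108 in SPRR1A, 197 in SPRR2A and 170 in SPRR3, and SPRR1B had matches at 141 and 111 bases. Of 35114 RefSeq promoters of the same length, 2308 (6.57%) held it. RefSeq promoters were matched for 7 of the 10 genes, and those of TGM3 and CNFN held no match. Among 22 other genes of the complex with a promoter, 9 held the match. Of these 9, 2 reached a mean of 0.5 RPKM in KYSE510 controls, against 1 of the 13 without it. SPRR3 held the match and had 1 read in all 12 libraries. SPRR2A also held the octamer ATTTGCAT, 110 bases before the start, a sequence found in 1.63% of all promoters. SPRR2B and SPRR2F, other genes of the complex, held the octamer too. The letters TATAAA stood 29 or 30 bases before the start in IVL, SPRR1A, SPRR2A and SPRR3, and 30 bases before it in TGM3. They were found anywhere in the window in 10.7% of all promoters and in 12 of the 22 other genes of the complex. The longest stretch shared by SPRR1A and SPRR1B was tttccttgaggcagggct, 18 bases that began 56 and 57 bases before their starts.

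In control cells IVL and the small proline-rich genes SPRR1B, SPRR2A and SPRR2D were nearly silent in KYSE150 and present in KYSE510. SPRR1A was low in both lines and SPRR3 had almost no reads, whereas envoplakin was abundant in both lines and higher in KYSE150. SPRR2A stood out, with a mean of 0.287 ± 0.130 RPKM in KYSE150 controls and 35.1 ± 24.5 in KYSE510 controls (SD, n = 3). EVPL stood at 24.5 ± 1.01 and 16.6 ± 1.20 RPKM (SD, n = 3). In limma's test, 5 of the 8 genes tested were higher in KYSE510 controls, where 28.3% of all 17823 genes tested were, and 1 was lower, where 33.7% of all genes were. IVL, SPRR1B, SPRR2A and SPRR2D met the filter on low values only through KYSE510 libraries, so a difference between the lines was built into their selection, and the count and their adjusted p-values below are descriptions. A fit with no filter on low values tested all genes with reads in any library. There the limma adjusted p was 0.000528 for SPRR2A, 0.00935 for IVL, 0.0135 for SPRR2D and 0.0710 for SPRR1B. The median difference of the 8 genes was 0.996 on the log2 scale, beside -0.07 for all genes tested.

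**Figure D1:**
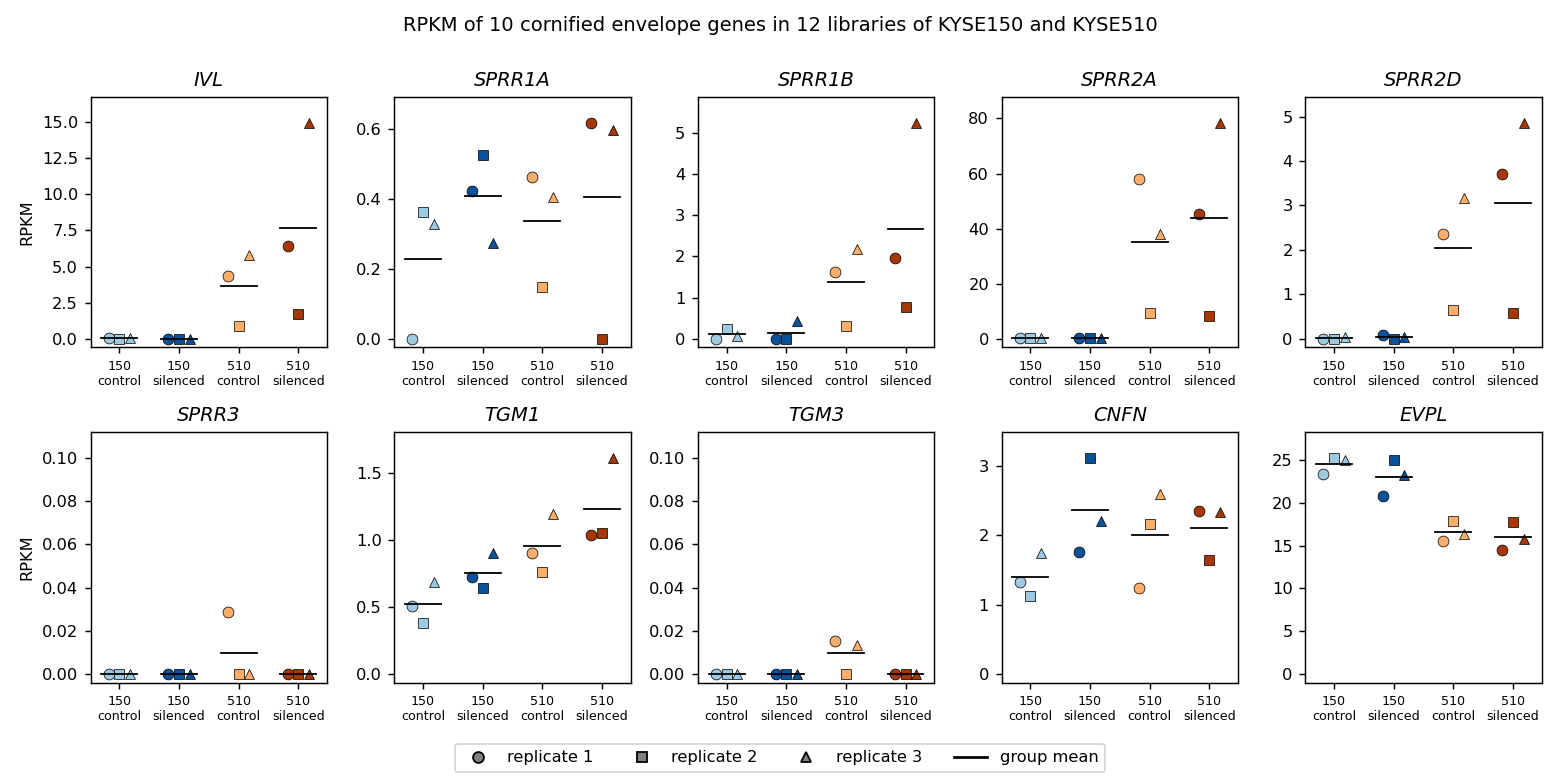
RPKM of the 10 genes in each of the 12 libraries, 1 panel per gene with its own linear axis. Points are libraries, their shape gives the replicate number, and bars are group means. SPRR2A reached 8.08 to 78.5 RPKM in KYSE510 libraries and stayed at or below 0.418 in KYSE150, while EVPL lay between 14.5 and 25.2 RPKM in all 12.

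Involucrin, the early envelope precursor that transglutaminases use as a scaffold, had 0.0232, 0 and 0.0205 RPKM in KYSE150 control replicates 1, 2 and 3, from 2 reads in all. The KYSE510 controls had 4.33, 0.864 and 5.79 RPKM, from 614 reads. Each KYSE510 library lay above each KYSE150 library, and within KYSE510 replicate 2 was far below the other two. IVL was higher in KYSE510 by 2.75 (SE 0.64) in log2 units, with a limma adjusted p of 0.00297. In reads scaled to depth the ratio was 253, with an exact 95% interval of 69.7 to 2092 that covers counting error only. In silenced cells IVL had 0 reads in KYSE150 against 1210 in KYSE510, so the ratio has no upper limit. Its exact 95% interval began at 381, and 3 reads over the KYSE150 group would give a ratio of 469.

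Of the small proline-rich proteins, which bridge other envelope proteins, SPRR2A was the most abundant. Its RPKM was 0.352, 0.137 and 0.373 in KYSE150 controls and 58.0, 9.26 and 37.9 in KYSE510 controls. The groups did not overlap, and the lowest KYSE510 library was again replicate 2. The difference was 5.17 (SE 0.76, limma adjusted p = 0.000114), and the read ratio was 120 (exact 95% interval 70.0 to 226). SPRR2D had 0, 0 and 0.0417 RPKM in KYSE150 controls and 2.36, 0.636 and 3.16 in KYSE510 controls. SPRR2D was 2.15 higher (SE 0.54, limma adjusted p = 0.00456), though the KYSE150 side rests on 1 read and the interval of its read ratio ran from 24.6 to 5528. SPRR2A and SPRR2D are near copies of other SPRR2 genes. In GENCODE release 29, 32.7% of the 50-base windows of SPRR2A and 19.3% of those of SPRR2D also occur in another SPRR2 gene, so the split of reads among them is uncertain.

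SPRR1B had 0, 0.236 and 0.0711 RPKM in KYSE150 controls and 1.61, 0.319 and 2.17 in KYSE510 controls. The lowest KYSE510 library stood just above the highest of KYSE150. The difference was 1.49 (SE 0.54, limma adjusted p = 0.0314), and it was lost without KYSE150 control replicate 1 (adjusted p = 0.0864) or 3 (0.0662), and without KYSE510 control replicate 1 (0.0936) or 3 (0.119). It was also lost with a pseudocount of 1 (0.0508) and with no filter on low values (0.0710). SPRR1A, whose model in the table is a single exon of 270 bases, stood at 0 to 0.361 RPKM in KYSE150 controls and 0.147 to 0.462 in KYSE510 controls, from 4 and 7 reads. SPRR1A shares 11.3% of its windows with SPRR1B, and its difference of 0.22 between the lines did not pass (limma adjusted p = 0.567). SPRR3, a major proline-rich protein of the normal esophageal lining, had 1 read in KYSE510 control replicate 1 and 0 in the other 11 libraries. The limit that 3 reads allow was 0.0256 to 0.0329 RPKM per group.

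Of the cross-linking enzymes, TGM1, the membrane-bound transglutaminase of keratinocytes, was measured in every library and TGM3, a soluble transglutaminase of late differentiation, almost nowhere. TGM1 had 0.508, 0.378 and 0.684 RPKM in KYSE150 controls and 0.902, 0.763 and 1.20 in KYSE510 controls, without overlap. TGM1 was 0.51 higher in KYSE510 (SE 0.17, limma adjusted p = 0.0212), and the call was lost without KYSE150 control replicate 1 (0.0515) or 2 (0.0813) or KYSE510 control replicate 3 (0.0878). TGM3 had 2 reads in all, in KYSE510 control replicates 1 and 3. The level that 3 reads of TGM3 would give was 0.0137 to 0.0176 RPKM per group. That level is a floor for reporting and not a limit of detection, since the KYSE510 control mean of 0.00964 RPKM lay below it.

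Envoplakin, the plakin that ties the envelope to keratin filaments and desmosomes, was the only one of the genes lower in KYSE510. EVPL had 23.4, 25.2 and 25.0 RPKM in KYSE150 controls and 15.5, 17.9 and 16.3 in KYSE510 controls. The groups stood well apart and the replicates close together, with at most 1.22 times between the highest and the lowest library of any of the 4 groups. The difference was -0.55 (SE 0.094, limma adjusted p = 0.000338), and 18 of 18 alternatives kept it past the threshold. Cornifelin, a small cysteine-rich envelope protein encoded by CNFN, had 1.32, 1.13 and 1.75 RPKM in KYSE150 controls and 1.24, 2.17 and 2.59 in KYSE510 controls. These ranges overlapped, and the difference of 0.37 did not pass (limma adjusted p = 0.193), although it did without KYSE510 control replicate 1 (0.0314).

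By level per exon length, EVPL came first in KYSE150 controls at 24.5 RPKM, followed by CNFN at 1.40 and TGM1 at 0.523, with no overlap between these 3. The next was SPRR2A at 0.287, and its range of 0.137 to 0.373 overlapped that of SPRR1A. In KYSE510 controls SPRR2A came first at 35.1 RPKM, but its range of 9.26 to 58.0 took in all of EVPL's. IVL (3.66), SPRR2D (2.05), CNFN (1.999), SPRR1B (1.37) and TGM1 (0.954) followed. EVPL did not overlap IVL, and from IVL on each neighbour in this order overlapped the next.

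**Figure D2:**
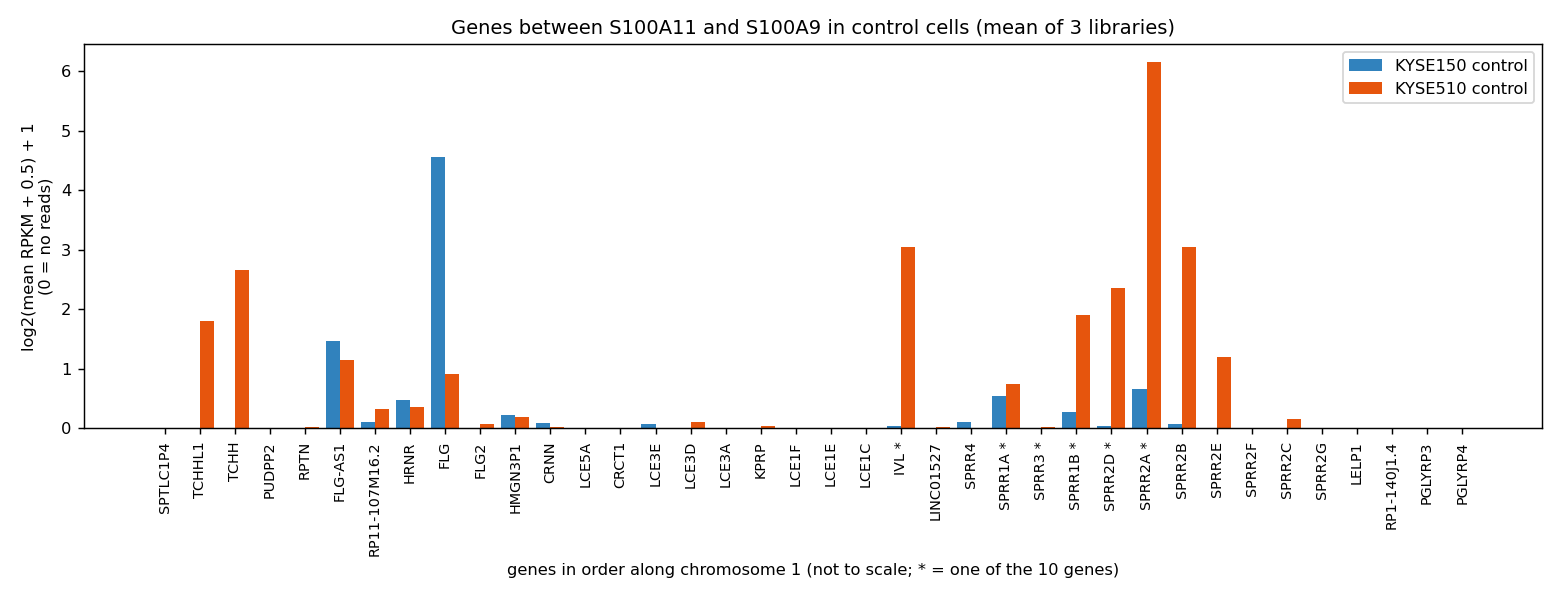
Mean level of the 38 table rows of the epidermal differentiation complex, between S100A11 and S100A9 on chromosome 1, in control cells of both lines (bars, n = 3 libraries each, log2 scale shifted so that 0 is no reads). In KYSE150 only FLG and FLG-AS1 reached 0.5 RPKM, while 9 rows did in KYSE510, among them IVL, SPRR1B, SPRR2D and SPRR2A.

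Across the complex on chromosome 1, few genes had reads. Of 38 rows of the table, 2 had a mean of at least 0.5 RPKM in KYSE150 controls, FLG (filaggrin, which bundles keratin filaments) and its antisense gene FLG-AS1. In KYSE510 controls 9 did. These were TCHHL1, TCHH, FLG-AS1, IVL, SPRR1B, SPRR2D, SPRR2A, SPRR2B and SPRR2E. The same rows passed in the silenced cells of each line. FLG-AS1 had means of 0.883 RPKM in KYSE150 controls and 0.605 in KYSE510 controls. The strand setting of the counting is not given in the sources used here. Reads from any stretch that FLG and FLG-AS1 share therefore cannot be assigned to one of them.

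Lists of related genes were set beside the 10. Of 38 other envelope genes, 25 were in the table and 10 were tested, of which 6 were higher in KYSE510 controls and 3 lower by limma, beside 28.3% and 33.7% of all genes tested. PI3, a protease inhibitor that transglutaminases attach to the envelope, was 4.61 higher on the log2 scale, SPRR2B 2.80 and TCHH 2.65. FLG was lower at -3.66, with 11.3 ± 1.71 RPKM in KYSE150 and 0.443 ± 0.214 in KYSE510 (SD, n = 3), CDSN, an adhesion protein of corneodesmosomes, at -1.31, and SCEL, another envelope precursor, at -0.67. Periplakin (PPL), the partner of envoplakin, differed in the opposite direction to EVPL and was 1.26 higher in KYSE510, from 35.9 ± 6.13 to 85.8 ± 5.49 RPKM. It was chosen for mention after its values were seen.

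Of 27 late differentiation genes, 26 were in the table and 11 were tested, of which 6 were higher in KYSE510 controls and 5 lower, beside the same 28.3% and 33.7%. SBSN, a suprabasal secreted protein, differed by 4.29, the serine protease KLK10 by 2.77 and the peptidylarginine deiminase PADI3 by 2.47. The protease KLK5 differed by -2.60 and the epidermal lipoxygenases ALOXE3 and ALOX12B by -2.33 and -1.03. Of 14 transcription factors linked to squamous differentiation, all in the table, 10 were tested, of which 7 were higher and 1 lower, against those shares. The ETS factors EHF and ELF3 were 3.29 and 3.20 higher, and CEBPB 2.31. FOSL1, a Fos-family partner in AP-1, was the one that was lower, with a difference of -2.39 and means of 164 ± 49.1 RPKM in KYSE150 and 31.4 ± 10.9 in KYSE510 (SD, n = 3). The medians of the lists were 1.53, 0.61 and 1.03, beside -0.07 for all genes tested. Of the tested genes, 5 of 10, 4 of 11 and 3 of 10 met the filter only through KYSE510 libraries, among them PI3, TCHH, SPRR2B, SBSN, PADI3 and EHF, and 0, 2 and 0 only through KYSE150. Their direction was therefore set in part by the filter, and the counts and medians are descriptions.

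**Figure D3:**
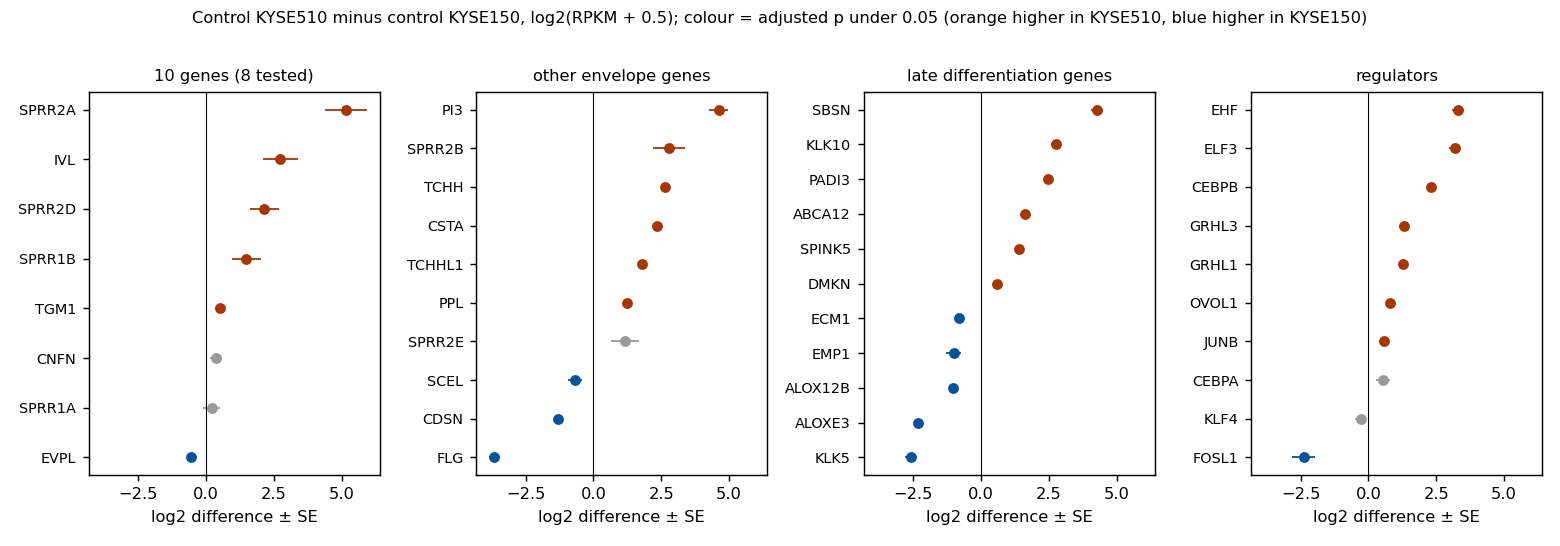
Difference between control cells of the lines (KYSE510 minus KYSE150, log2(RPKM + 0.5), mean ± SE from limma, n = 3 against 3) for the genes tested among the 10 and in the other lists. Orange points passed toward KYSE510, blue points toward KYSE150 and grey points did not pass. SPRR2A lies at 5.17 and EVPL at -0.55.

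Silencing of HCP5 moved none of the 8 genes past the threshold in limma's test, in either line, in the mean over lines or in the difference between the lines. Among all 17823 genes tested, 0.499% passed in KYSE150, 0.0393% in KYSE510 and 0.539% in the mean over lines. With the replicate block none of the 8 passed either, where 6.70% of all genes did in KYSE150 and 0.112% in KYSE510. Before adjustment limma put 1 gene under 0.05 in KYSE150, CNFN, and 0 in KYSE510, and with the block 2 and 4. The share of all genes under 0.05 before adjustment is not given here, so these counts are descriptions. The median change of the 8 genes was 0.05 in KYSE150, beside 0.08 for all genes, and 0.21 in KYSE510, beside -0.02.

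IVL had 6.39, 1.72 and 15.0 RPKM in silenced KYSE510 replicates 1, 2 and 3, against 4.33, 0.864 and 5.79 in the controls of the same numbers. Silenced replicate 3 was the highest of the 6, silenced replicate 2 was below control replicates 1 and 3, and the groups overlapped. Within pairs the silenced library was 1.48, 1.99 and 2.59 times its control, higher in 3 of 3, where 16.0% of all genes tested were higher in all 3 KYSE510 pairs. The log2 change was 0.84, with an SE of 0.64 and a limma adjusted p of 0.939. The replicate block brought the SE to 0.15 and the limma adjusted p to 0.0993. A limma fit with voom weights on the reads recovered from the RPKM, with the block, gave 1.04 (SE 0.14, adjusted p = 0.00124), and there 2.14% of all genes passed in either direction. Over 22 alternatives the adjusted p of IVL ran from 0.00124 to 1, and that fit was the only one past the threshold. Without the block the voom fit gave 1.01 (limma adjusted p = 0.910). The size of the IVL change rested on single libraries, at 0.17 without KYSE510 control replicate 2, 0.18 without silenced replicate 3 and 1.58 without silenced replicate 2. With both replicate 2 libraries of KYSE510 left out the change was 0.91 (limma adjusted p = 0.973, 0.358 with the block).

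SPRR1B had 1.95, 0.764 and 5.25 RPKM in silenced KYSE510, against 1.61, 0.319 and 2.17 in controls. It too was higher in 3 of 3 pairs, 1.21, 2.39 and 2.42 times its control, with a change of 0.65 (SE 0.54, limma adjusted p = 0.942) that was 0.14 without control replicate 2, 0.0801 without silenced replicate 3 and 1.17 without silenced replicate 2. SPRR2D had 3.71, 0.582 and 4.87 RPKM in silenced KYSE510 against 2.36, 0.636 and 3.16, higher in 2 of 3 pairs, with a change of 0.35 (limma adjusted p = 0.968). SPRR2A had 45.4, 8.08 and 78.5 RPKM against 58.0, 9.26 and 37.9, at 0.783, 0.872 and 2.07 times its control. Only pair 3 was higher for SPRR2A, and its change of 0.17 turned to -0.59 without KYSE510 control replicate 2 and to -0.50 without silenced replicate 3. The change of SPRR2D likewise turned to -0.16 without that control and -0.10 without that silenced library. In silenced KYSE150 the SPRR2A values were 0.161, 0.10 and 0.418 RPKM, within a few reads of the controls. SPRR1B had 0, 0 and 0.419 RPKM there and SPRR2D 0.0720, 0 and 0.0351, and IVL had no reads.

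TGM1 showed a small difference of the same sign in every pair of both lines. Silenced KYSE150 had 0.723, 0.646 and 0.904 RPKM against 0.508, 0.378 and 0.684, and silenced KYSE510 had 1.04, 1.05 and 1.61 against 0.902, 0.763 and 1.20. Silenced libraries were 1.42, 1.71 and 1.32 times their controls in KYSE150 and 1.15, 1.38 and 1.35 times in KYSE510. The groups overlapped in both lines, although TGM1 was higher in 6 of 6 pairs, as were 6.70% of all genes tested. The change was 0.30 in KYSE150 (SE 0.17, limma adjusted p = 0.358, 0.0690 with the block) and 0.25 in KYSE510 (limma adjusted p = 0.917, 0.276 with the block). With libraries centred on their median it was 0.17 in KYSE150 (limma adjusted p = 0.561) and 0.28 in KYSE510 (limma adjusted p = 0.739). Exact two-sided permutation tests over the 6 libraries of a line gave 0.2 and 0.3, where 0.1 is the smallest p possible. Averaged over the lines the change was 0.28 (limma adjusted p = 0.405), and the voom fit gave 0.45 with the block (limma adjusted p = 0.0349), where 6.83% of all genes passed in either direction, and 0.45 without it (limma adjusted p = 0.377).

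CNFN was higher in each silenced KYSE150 library than in any control of that line. Silenced libraries had 1.77, 3.12 and 2.21 RPKM, against 1.32, 1.13 and 1.75 in controls. The change was 0.58 (SE 0.23, limma adjusted p = 0.240), with an exact two-sided permutation p of 0.1, the smallest possible. With libraries centred on their median the change was 0.45 (limma adjusted p = 0.28). The share of all genes without overlap in KYSE150 is not given here. CNFN and TGM1 were higher in 3 of 3 KYSE150 pairs, as were 37.4% of all genes tested. In KYSE510 CNFN had 2.35, 1.65 and 2.33 RPKM when silenced, with a change of 0.09 and overlap with controls. The difference between the lines in its change, -0.49, did not pass (limma adjusted p = 0.504). In 6 of 6 pairs EVPL was slightly lower in the silenced library, a count with no share of all genes beside it. It had 20.8, 25.0 and 23.3 RPKM in silenced KYSE150 and 14.5, 17.7 and 15.8 in silenced KYSE510, with changes of -0.09 and -0.05 (limma adjusted p = 0.621 and 0.975). SPRR1A stood at 0.275 to 0.525 RPKM in silenced KYSE150 and 0 to 0.617 in silenced KYSE510, from 9 and 8 reads. SPRR3 and TGM3 had no reads in any silenced library.

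**Figure D4:**
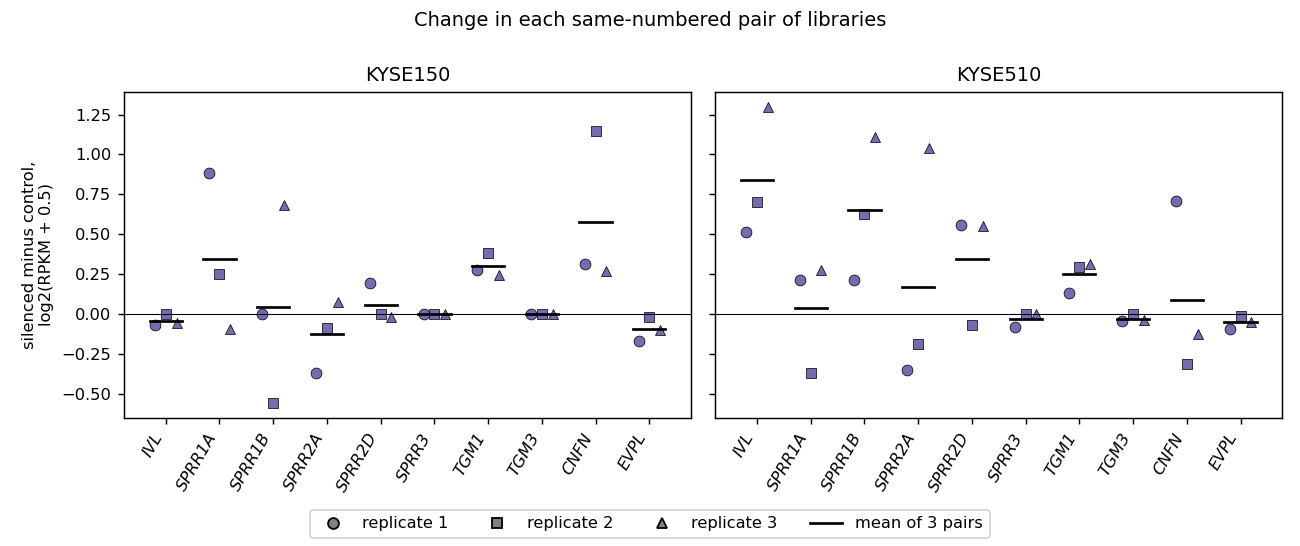
Change in each pair of libraries with the same replicate number (silenced minus control, log2(RPKM + 0.5)) for the 10 genes in each line. Shapes give the replicate number and bars the mean of the 3 pairs. TGM1 lies above 0 and EVPL below 0 in 6 of 6 pairs, while IVL lies above 0 only in KYSE510. Of all genes tested, 6.70% lay above 0 in 6 of 6 pairs, and the share below 0 is not given here.

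None of the related lists held a gene past the threshold on silencing in either line by limma, of 10, 11 and 10 tested. In KYSE150 the largest changes in each list were CSTA (0.42) and FLG (-0.33), ECM1 (0.65) and KLK10 (-0.20), and JUNB (0.72) and ELF3 (-0.49). With the replicate block 1 gene of each list passed there, close to the 6.70% of all genes tested that did. These were CSTA, a cysteine protease inhibitor of the envelope (limma adjusted p = 0.0452), the secreted protein ECM1 (0.025) and JUNB, a Jun-family subunit of AP-1 (0.0275). In KYSE510 the largest values were SPRR2E (0.70) and PPL (-0.12), SBSN (0.62) and EMP1 (-0.04), and EHF (0.61) and ELF3 (-0.42). None passed with or without the block in limma's fit on log2(RPKM + 0.5) of the filtered genes in all 12 libraries. Voom without the block passed 0 list genes in either line. Voom with the block passed 2, 2 and 2 in KYSE150, where 17.8% of all genes passed. In KYSE510 it passed 1 (PI3), 2 (SBSN and SPINK5) and 4 (EHF, ELF3, GRHL1 and JUNB), where 2.14% did, and SPINK5 and GRHL1 were named after their values were seen. Before adjustment, 1, 1 and 3 genes of the lists were under 0.05 in KYSE150 by limma, and 3, 2 and 3 were in KYSE510. With no filter on low values limma passed 1 other envelope gene in KYSE510 after adjustment. Without KYSE150 control replicate 3 it passed 1 late differentiation gene and 1 transcription factor of the lists in KYSE150. These counts too are descriptions, with no share of all genes beside them.

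In KYSE510 the precursor genes were low in replicate 2 of both control and silenced cells. Replicate 2 was the lowest of 3 in both arms for IVL, SPRR1A, SPRR1B, SPRR2A and SPRR2D, 5 of the 8 tested, where 14.3% of all genes tested were. This pattern was noticed after the values were seen. For SPRR1A the order rests on 3, 1 and 3 reads in control replicates 1, 2 and 3 and on 4, 0 and 4 in silenced ones. Replicate 2 had 17.1% of the mean of replicates 1 and 3 for IVL in controls and 16.1% in silenced cells. The shares were 19.3% and 13.0% for SPRR2A, 23.0% and 13.6% for SPRR2D, and 16.9% and 21.2% for SPRR1B. EVPL did not share this, with 112% and 117%, nor did TGM1 at 72.7% and 79.4% or CNFN at 113% and 70.4%.

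Ranked over all 17823 genes by how far replicate 2 lay below the others on the log2 scale in both arms, SPRR2A was first (-2.55), IVL was at rank 4 (-2.12), SPRR2D at 11 (-1.82) and SPRR1B at 19 (-1.55). The median over all genes was 0.03, and EVPL was at rank 14760. SPRR2B at rank 7, the stress keratin KRT6A at 16, SPRR2E at 24, KRT17 at 31 and FOSL1 at 47 were low in the same libraries. KRT6A had 37.8% and 24.6% of the other replicates and FOSL1 52.3% and 36.8%. KRT5, a basal keratin, had 110% and 90.1%, and CSTA 105% and 93.3%. Replicate 2 was the lowest in all 4 groups of both lines for 1 of the 8 genes, SPRR2A, where 3.79% of all genes tested were. The depth of the KYSE510 replicate 2 libraries, 25270844 and 21116344 reads, lay within the range of the other libraries. What set these libraries apart was not tested. Without both of them 5 genes were higher and 1 lower in KYSE510 controls, and 0 passed on silencing, with or without the block.

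**Figure D5:**
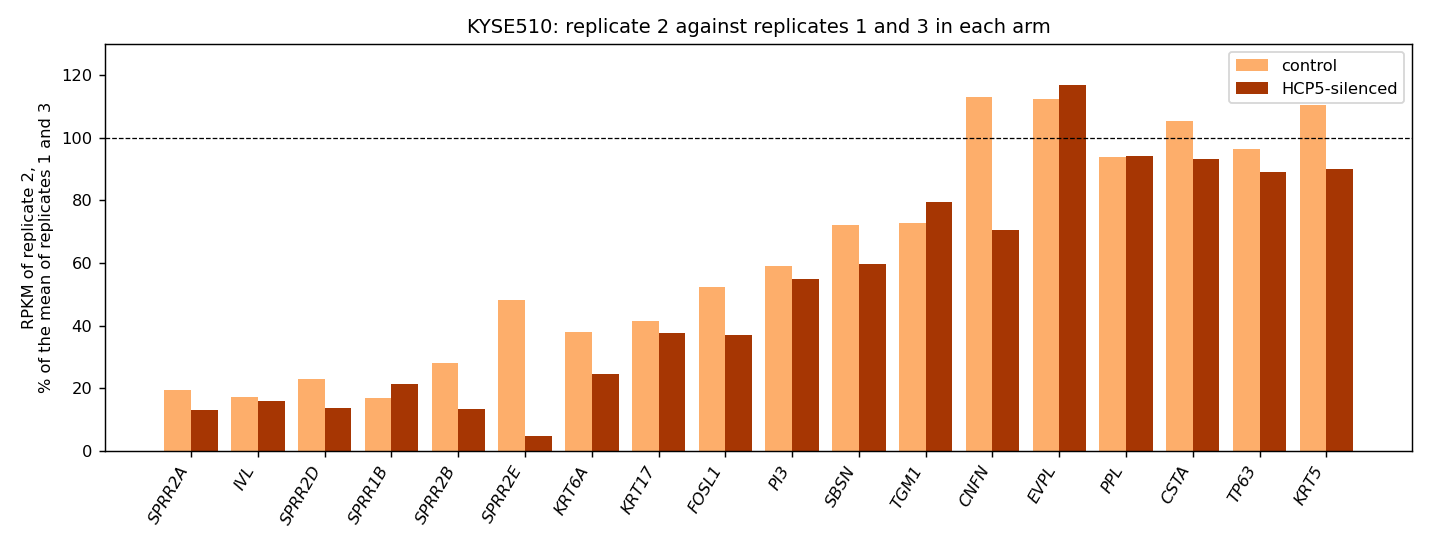
RPKM of KYSE510 replicate 2 as a percent of the mean of replicates 1 and 3, in control and silenced cells (bars, 1 library against 2), for tested genes of the envelope, keratins and regulators. SPRR2A, IVL, SPRR2D and SPRR1B lie between 13.0% and 23.0% in both arms, while EVPL lies above 100%.

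Among 14022 other genes with a mean of at least 1 RPKM, profiles over the 12 libraries, centred on the mean of each gene, were compared with the mean profile of the 8 genes. The nearest by root mean square distance were RNASE7 (0.261 on the log2 scale), TRIB1 (0.286), ABCC3 (0.298), THBD (0.301) and VASN (0.308). RNASE7, which encodes an antimicrobial ribonuclease of epithelia, had a mean of 0.201 RPKM in KYSE150 controls and 1.52 in KYSE510 controls. The 8 genes themselves lay at 0.337 (SPRR1B) to 1.94 (SPRR2A) from their own mean.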

How the data were processed

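RNA sequencing of 12 libraries was analysed in 4 groups of 3, taken from the labels. The authors deposited RPKM for 38516 genes. Per the submitters' processing notes, HISAT2, DESeq and GRCh38 were used, and the position columns have the layout featureCounts writes, per the file headers. The strand setting and annotation release are not given in the sources used here. In each library RPKM times exon length came in whole steps for 100% of values (within 0.05), from which the reads per gene were recovered.

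Genes with at least 0.5 RPKM in at least 3 libraries were tested (17823) on log2(RPKM + 0.5), which understates changes of low genes. Of the 10 genes, 8 passed this filter. The 12 libraries entered a model of 4 group means in limma 3.58.1 under R 4.3.3 (eBayes with trend), with two-sided p-values adjusted by Benjamini-Hochberg over all genes tested and a threshold of 0.05. The model was tested on simulated data. Intervals on reads are exact 95% Poisson or binomial intervals. PCR copies of a molecule are not independent, so these cover no more than counting error. The chi-square per gene between libraries of a group was at least 10.3, so none was treated as a copy.

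Replicate numbers come from the titles. Deviations from group means correlated at 0.147 to 0.415 in same-numbered control and silenced libraries of a line, in 6 of 6 pairs, and at -0.385 to 0.184 otherwise, so the numbers were taken to pair libraries. Alternatives were the replicate block, pseudocounts of 0.1 and 1, no filter, centring on library medians, each line alone, voom on recovered reads (limma) and each library left out. Leaving out both KYSE510 replicate 2 libraries was chosen after seeing the data. The genes and lists were chosen with earlier results of these data known. Some genes of the lists are not reported here, and counts are given without them. Named genes are the 10, up to 3 genes of a list in each direction past the threshold in a comparison (the largest in each direction where none passed), and the 5 nearest in profile. Motifs were searched with Python 3.11.15 in RefSeq promoters. Shared sequence was read from GENCODE 29 transcripts.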

Additional observations from a re-analysis of the deposited data

How the results depend on the processing

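On silencing, the count of the 8 genes past the threshold stayed at 0 under other pseudocounts, no filter, centring, the replicate block and a fit of each line alone. Between control lines the count higher in KYSE510 fell from 5 to 4, by the loss of SPRR1B, with a pseudocount of 1 or no filter. With voom and the replicate block 1 of the 8 genes was higher in silenced KYSE510 (IVL) and 1 in the mean over lines (TGM1), where the limma fit on log2(RPKM + 0.5) had 0. Leaving out single libraries, the number higher in KYSE510 controls ran from 3 to 5, with 3 without KYSE150 control replicate 1 or KYSE510 control replicate 3. Control lines differ only between blocks, where no paired value exists, and on silencing the replicate block changed no call of the 8 genes in limma's fit on log2(RPKM + 0.5), but in the voom fit it changed both calls above, where voom without the block passed 0. The changes of low genes had no stable sign. SPRR1B in KYSE150 (0.04) became -0.0489 with a pseudocount of 0.1, -0.0867 after centring, -0.54 with voom and -0.0419 with voom and the block, and ran from -0.25 to 0.20 with single libraries left out. SPRR2D in KYSE150 (0.06) became -0.0708 after centring. SPRR1A in KYSE510 (0.04) became -0.16 with a pseudocount of 0.1 and -0.11 with voom, and ran from -0.16 to 0.42 with single libraries left out. In KYSE510 the change of IVL ran from 0.17 to 1.58 and that of SPRR1B from 0.0801 to 1.17 with single libraries left out. There the ranges with single libraries left out also crossed 0 for SPRR2A (-0.59 to 1.11), SPRR2D (-0.16 to 1.06), CNFN (-0.15 to 0.27) and EVPL (-0.124 to 0.0159), and between control lines for SPRR1A (-0.0313 to 0.396). The cause was not tested. With 3 libraries a group an exact permutation test cannot go below 0.1. SPRR3, TGM3 and, in KYSE150, IVL and SPRR2D had 3 reads or fewer per group, at 63265810 to 81449478 reads in all per group.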
